A study of Mus musculus with 34 samples.

Results

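Ribosome footprints of the mouse hippocampus were compared between mice taken 5 min after contextual fear conditioning and control mice. Genes entered the comparison where the mean footprint signal over the 15 tissue footprint libraries was at least 1, which left 7898 of the 11531 genes listed. The comparison used 6 of the 34 samples of the series, 3 footprint libraries a side, paired by replicate number. Krt10, at a mean of 1.001, lay just inside the limit, and Zfp37, at 0.9997, just outside it. Both groups were C57BL/6N mice that were housed singly and handled on the days before. Conditioned mice explored a chamber, received 1 electric foot shock in it and went back to the home cage, and the hippocampi were frozen 5 min after conditioning. Control mice are labelled as having had no stimulus, so the chamber, the shock and the return to the cage cannot be told apart as what distinguished the groups. The labels do not say whether a library was made from 1 mouse or from a pool. A p-value here therefore reflects how much these libraries varied, and part of that variation may be technical.

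A footprint is the stretch of mRNA covered by a ribosome, so the number of footprints on a gene counts the ribosomes that were translating it when the tissue was lysed. It changes with the amount of mRNA and with the number of ribosomes on each mRNA, and RNA libraries of the same groups separate these. Long-lasting memory in the hippocampus is known to need protein synthesis in the hours after training. Most proteins of the cytosol, nucleus and mitochondria are translated on free ribosomes, and most membrane and secreted proteins on ribosomes bound to the endoplasmic reticulum (ER). In bulk tissue, fewer cells of a type and less RNA per cell cannot be told apart.

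The footprint libraries held 19245717 to 24750901 reads on listed genes in the control group and 15928292 to 24081134 at 5 min, and the median gene held 462 to 719 reads. Values are given as signal, which is a number of reads divided by 1 number per library. Neuronal and hippocampal markers were present in all 6 libraries, such as Nov (30.7 to 39.6) and Fibcd1 (13.7 to 18.1) of CA1 pyramidal cells. Markers of the choroid plexus, an epithelium of the neighbouring ventricle, set replicate 3 apart. The summed signal of 16 of them was 2152, 1953 and 194 in control replicates 1 to 3 and 1577, 1272 and 517 at 5 min. Ttr, the transthyretin gene that defines the tissue, stood at 1535, 1547 and 108 in control and 1085, 973 and 346 at 5 min. Genes of that list moved in opposite directions in the pairs (medians -0.31, -0.41 and 0.59 on the log2 scale), and 0 of 16 moved the same way in all 3 pairs.

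Differences between 5 min and control were small for nearly all genes. On log2(signal + 1), a scale that understates the fold change of genes with low signal, they ran from -0.29 to 0.28, and 87.7% lay within 0.1 of 0. By limma with the replicate number as a block and all 15 libraries in the fit, 0 of 7898 genes passed (0.0%, smallest Benjamini-Hochberg adjusted p = 0.324). At an unadjusted p under 0.05 there were 544 genes (6.89%), of which 217 were higher (2.75%) and 327 lower (4.14%). With the spread estimated from the 6 libraries of the comparison alone, 228 genes passed (2.89%), 159 higher (2.01%) and 69 lower (0.874%). That count rests on the pairs: it was 0 without replicate 1, 1 without replicate 2 and 720 without replicate 3, each a fit with few libraries to estimate the spread. No gene is therefore said here to have risen or fallen in footprints, and directions below describe these 6 libraries. Pair by pair, 1632 genes were higher in all 3 pairs (20.7%) and 1807 were lower in all 3 (22.9%). The groups did not overlap for 140 higher genes (1.77%) and 242 lower genes (3.06%). Across genes, which are not independent replicates, the differences of pairs 1 and 2 correlated at r = 0.460, those of pairs 1 and 3 at 0.158 and those of pairs 2 and 3 at 0.121.

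Nrsn1, which encodes neurensin-1, a vesicle membrane protein of growing neurites, had the smallest p of all genes. Its footprint signal was 2.83, 3.27 and 3.70 in control replicates 1 to 3 and 2.30, 2.45 and 2.73 at 5 min, on 676 to 1129 reads a library. It was lower in each pair, and the groups did not overlap. The mean went from 3.27 ± 0.435 to 2.49 ± 0.214 (SD, n = 3), 23.7% lower (log2 change -0.29, SE 0.052, limma adjusted p = 0.324, and 0.00955 with the 6 libraries alone). Its RNA went the other way, with 17.2, 16.7 and 20.5 in control and 18.3, 17.2 and 22.1 at 5 min (log2 change 0.08). The footprint change minus the RNA change was -0.36 (SE 0.081, limma adjusted p = 0.218). Its paralog Nrsn2 stood at 4.57, 5.07 and 5.40 in control and at 5.02, 5.01 and 5.58 at 5 min, with overlapping groups and a log2 change of 0.05 (SE 0.047). Among the 27 tested genes of neurites and vesicle membranes to which Nrsn1 belongs, 17 were lower and 10 higher (median -0.02).

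**Figure D1:**
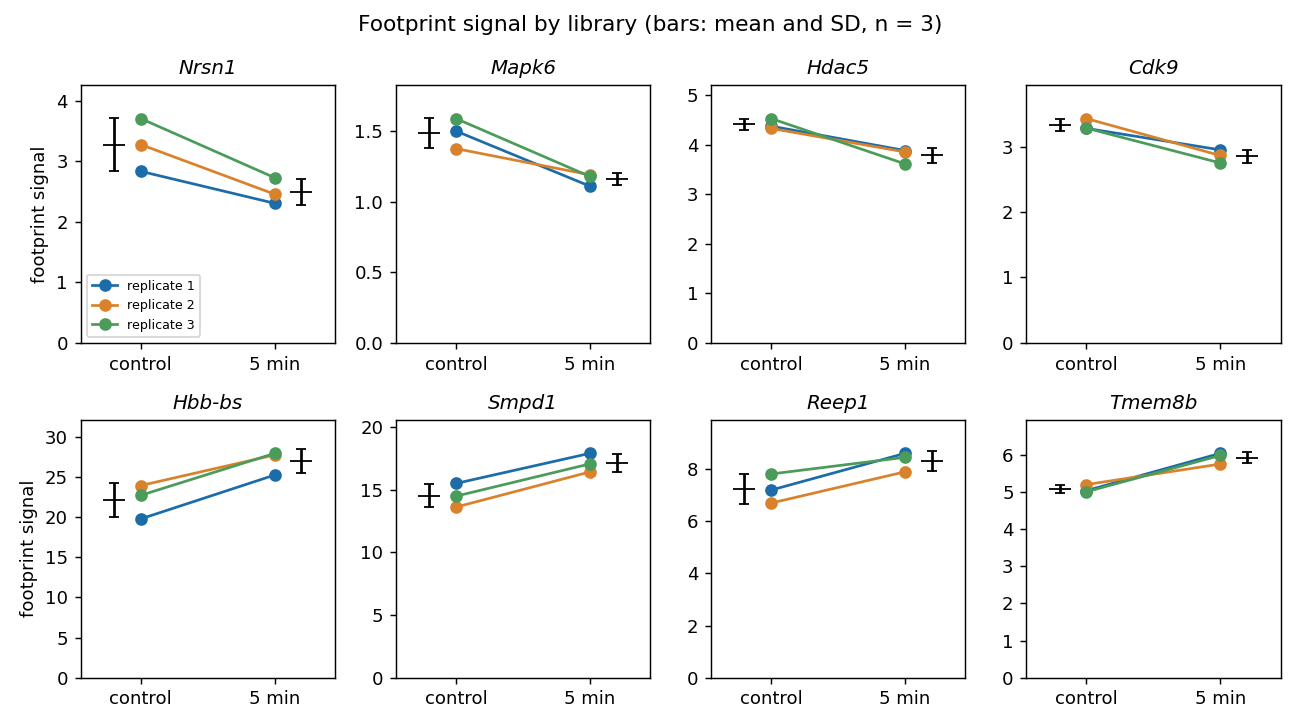
Footprint signal (y axis, from 0) of 8 genes in control and 5 min libraries, with lines joining libraries of the same replicate number and black bars for the mean and SD of 3 libraries. In the upper row each line goes down and in the lower row each goes up, and in these 8 genes the groups do not overlap.

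The other 11 genes with the smallest p among those lower in all 3 pairs are given next. None passed over all genes (limma adjusted p = 0.668 for each). Mapk6, the gene of the atypical MAP kinase ERK3, had 1.5, 1.37 and 1.59 in control and 1.11, 1.19 and 1.18 at 5 min (log2 change -0.20, SE 0.044), without overlap. Hdac5, a histone deacetylase that shuttles between nucleus and cytoplasm, had 4.38, 4.33 and 4.53 and then 3.88, 3.85 and 3.61 (-0.18, SE 0.046). Cdk9, the kinase that releases paused RNA polymerase II, had 3.28, 3.43 and 3.28 and then 2.95, 2.86 and 2.75 (-0.17, SE 0.045). The 3 genes separated the groups in every library. Slc45a4, a solute carrier, went from 2.46 ± 0.0722 to 2.00 ± 0.177 (SD, n = 3, log2 change -0.21), and Fip1l1, which takes part in forming mRNA 3′ ends, from 2.31 ± 0.193 to 1.96 ± 0.173 (-0.16), both without overlap. Ptbp1, a splicing regulator that binds pyrimidine tracts, went from 1.22 ± 0.253 to 0.944 ± 0.185 (-0.19). Ets2, a transcription factor, went from 3.32 ± 0.577 to 2.72 ± 0.592 (-0.22), and Map3k10, a kinase upstream of JNK, from 1.65 ± 0.278 to 1.27 ± 0.25 (-0.22). These 3 were lower in each pair with overlapping groups. The remaining genes of this set were the zinc finger gene Zcchc12 (-0.18), the autophagy gene Atg2b (-0.16) and Calb2, which encodes the calcium-binding protein calretinin (-0.18).

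Among lower genes without overlap that are not named above, the largest changes belonged to Clip1, a linker at the tips of microtubules (-0.16), and Cog2, of a Golgi tethering complex (-0.16). Psma6 of the proteasome core, Rplp0 of the ribosomal stalk and Ankmy2 each stood at -0.16 as well. The mean RNA signal of Hdac5 went from 7.15 to 7.64 and that of Mapk6 from 4.28 to 4.57, while that of Ets2 went from 2.05 to 1.82. The footprint change minus the RNA change was -0.28 for Mapk6, -0.26 for Hdac5 and -0.26 for Slc45a4, none past the threshold over 7103 genes (limma adjusted p = 0.164, 0.321 and 0.414).

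The 12 genes with the smallest p among those higher in all 3 pairs did not pass either. Hbb-bs, a beta globin gene of red blood cells, had 19.8, 23.9 and 22.7 in control and 25.2, 27.7 and 27.9 at 5 min (log2 change 0.28, SE 0.061, limma adjusted p = 0.668, and 0.00499 with the 6 libraries alone). Its RNA went from 15.7 ± 0.459 to 17.3 ± 1.4 (SD, n = 3). Of the 12 genes of the blood list 3 were tested, among them Fech, an enzyme of heme synthesis, at 0.01, and the part of residual blood in the result was not tested. Globin genes have near-identical copies, which makes the assignment of reads uncertain. Smpd1, the acid sphingomyelinase of lysosomes, had 15.5, 13.6 and 14.5 in control and 17.9, 16.4 and 17.1 at 5 min (0.22, SE 0.060), with mean RNA signals of 12.2 and 12. The groups did not overlap in footprints, and the RNA means differed by less than their SD.

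Reep1, which shapes ER membranes, had 7.20, 6.70 and 7.81 in control and 8.60, 7.90 and 8.45 at 5 min (0.18, SE 0.054). Tmem8b, a transmembrane protein gene, had 5.04, 5.20 and 5.01 and then 6.04, 5.75 and 5.98 (0.19, SE 0.057). Both separated the groups, as did the urea transporter gene Slc14a1 (2.68 ± 0.326 to 3.22 ± 0.241), the Golgi glycosyltransferase gene Mgat4b (2.31 ± 0.204 to 2.67 ± 0.0283) and the deubiquitinase gene Usp42 (1.13 ± 0.0938 to 1.38 ± 0.0339). Higher in each pair but with overlapping groups were the membrane kinase gene Lmtk3 (0.18), the agrin receptor gene Lrp4 (0.22) and Insig1, an ER protein that holds back cholesterol synthesis (0.15). Abcd4, a lysosomal transporter (0.16), and Kifc2, a kinesin (0.17), did the same. The largest further changes without overlap belonged to Rxfp1, a relaxin receptor (0.28), Icam5, an adhesion molecule of dendrites (0.21), Nov, a secreted matrix protein (0.18), Podxl2, a sialomucin (0.18), and Cldn11, the claudin of myelin (0.17). Icam5 stood at 45.5, 42.3 and 41.7 in control and at 54.1, 47.2 and 49.3 at 5 min, while its RNA means were 27.1 and 27.7.

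Genes were then sorted by the protein names that the deposited table gives. This sorting was chosen after values had been seen, and it is a description. RefSeq calls a protein a precursor when a signal peptide or other leading part is cut off later, as in secreted and many membrane proteins. Of 1193 tested genes named as precursors without the word mitochondrial, 1025 were higher at 5 min and 168 lower, against 47.3% higher and 52.7% lower over all genes. In all 3 pairs 634 were higher (53.1%) and 44 lower (3.69%). Their median log2 change was 0.07 (0.06, 0.08 and 0.06 in pairs 1 to 3), against -0.00475 over all genes. The fit with 6 libraries called 101 of the 1193 as higher and 0 as lower. Over all 7898 genes it called 159 higher (2.01%) and 69 lower (0.874%), counts that rest on the pairs as said above. Their median RNA change was 0.02, against 0.01 over all genes. The footprint change exceeded the RNA change in 794 of 1018 of them, against 43.9% over all genes with both measures.

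Mitochondrial precursors are made in the cytosol and imported after translation. They lay on the other side: 155 of 199 were lower, 94 of them in all 3 pairs, with a median of -0.04 (-0.05, -0.06 and -0.03). Genes whose protein name holds the word transmembrane were higher in 145 of 178 cases (median 0.06). Kinase genes were lower in 250 of 388 cases (median -0.02). With each library centred on its median gene, the median of precursors outside mitochondria was 0.07 and that of mitochondrial precursors -0.04.

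**Figure D2:**
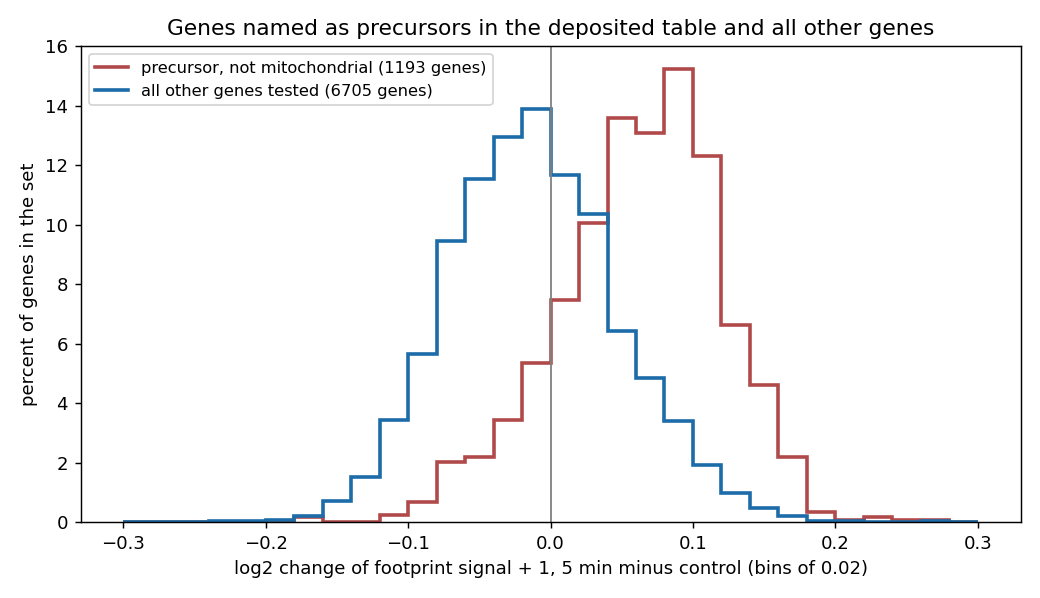
Share of genes (y axis, percent of each set) by log2 change of footprint signal + 1 from control to 5 min (x axis, bins of 0.02), for 1193 genes named as precursors without the word mitochondrial and for the 6705 other genes tested. The precursors are shifted to the right, with 1025 of 1193 above 0.

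Families were then formed from the first 2 words of the protein names, which gave 79 with at least 12 tested members. The highest medians belonged to membrane proteins. The family that begins with sodium/potassium holds subunits of the pump that restores the ion gradients of neurons and glia, its interacting proteins and exchangers: 12 of 12 were higher, 10 of them in all 3 pairs (median 0.09). Receptor-type tyrosine phosphatases, which act at neuronal contacts, were higher in 16 of 17 cases (median 0.07), among them Ptprz1 of astrocytes and their precursors (0.18) and Ptprn of secretory granules (0.15). Of 115 proteins named only as transmembrane proteins, 89 were higher, 50 in all 3 pairs, and 26 lower, 4 in all 3 pairs (median 0.05). Zinc transporters, which carry zinc across membranes, were higher in 13 of 16 cases (median 0.06), and ionotropic glutamate receptors in 10 of 12 (median 0.06), among them Grid1 (0.16).

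The lowest medians belonged to proteins of the cytosol and nucleus. Heat shock proteins were lower in 13 of 15 cases (median -0.09). RNA helicases made up most of the families named ATP-dependent and probable ATP-dependent, with 12 of 14 and 12 of 13 lower (medians -0.09 and -0.08), among them Ddx3x (-0.13) and Ddx17 (-0.15). Heterogeneous nuclear ribonucleoproteins, which package new transcripts, were lower in 16 of 18 cases (median -0.07), led by Hnrnpf (-0.14) and Hnrnpk (-0.14), while their median RNA change was 0.02. Actin-related proteins, most of them in complexes that branch actin or remodel chromatin, were lower in 9 of 12 cases (median -0.07). Each of these families kept its sign in every pair and with each library centred on its median gene.

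**Figure D3:**
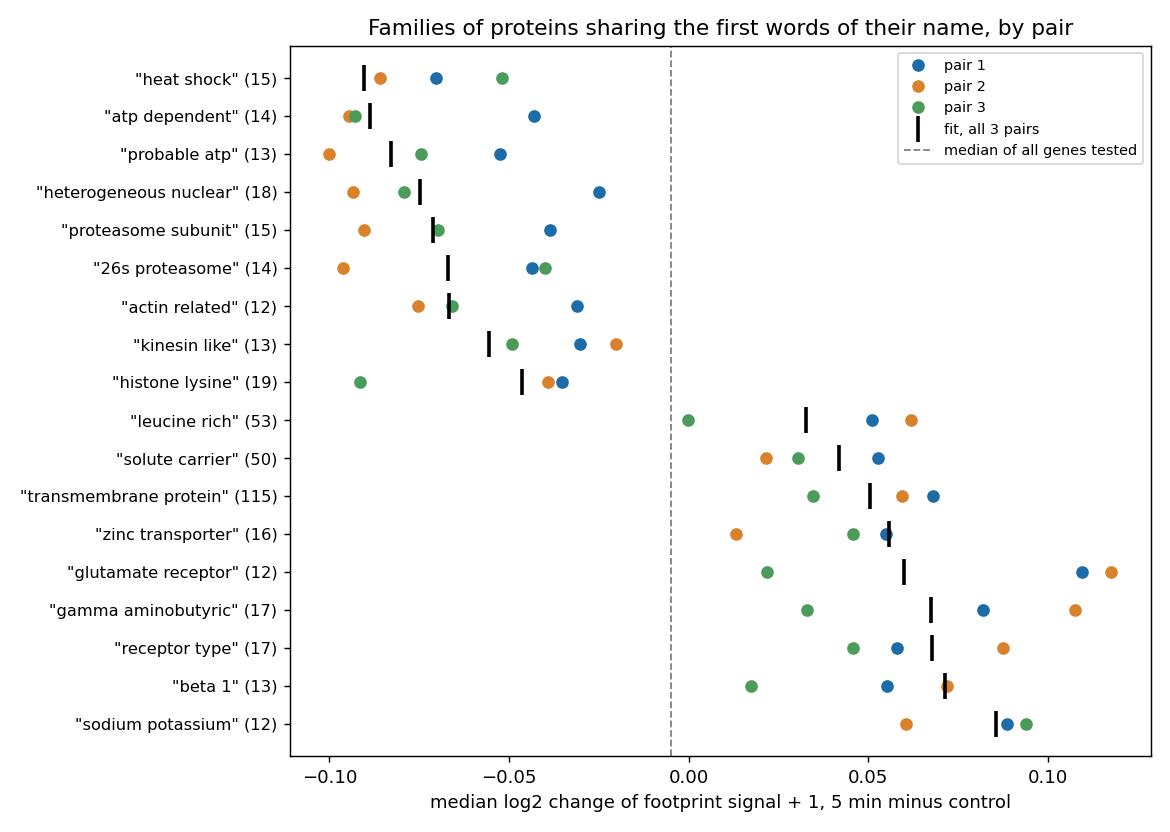
Median log2 change of footprint signal + 1 (x axis) of the 9 lowest and 9 highest of 79 families formed by protein name (y axis, quoted words with the number of genes in brackets), with a point for each pair and a black bar for the fit. The sodium/potassium family lies right of 0 in each pair and the heat shock family left of 0.

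Genes of protein breakdown and folding lay on both sides of 0. The proteasome is the cytosolic and nuclear protease that degrades proteins tagged with ubiquitin. Of its 14 core subunits 13 were lower, 10 in all 3 pairs (71.4%, against 22.9% over all genes), with a median of -0.08 (-0.04, -0.10 and -0.08 in the pairs). Psma6 had 7.86, 7.38 and 8.02 in control and 7.07, 6.48 and 6.99 at 5 min, without overlap. Of 18 subunits of the regulatory particle that unfolds substrates, 18 were lower, 15 in all 3 pairs (median -0.07). Psmd14, the deubiquitinase of the particle, had 6.9, 6.4 and 6.95 and then 6.44, 5.42 and 6.00, and there the groups overlapped. Vcp, the ATPase that extracts ubiquitin-tagged proteins, had 17.8, 13.6 and 12.9 and then 16, 11.9 and 11.2, and 18 of 22 ubiquitin and deubiquitinase genes were lower (median -0.03). The RNA median of the particle was -0.00437, and the footprint change was below the RNA change in 18 of 18. RNA of the core leaned lower too, with a median of -0.03 and 3 of 14 higher. There the footprint change was below the RNA change in 13 of 14.

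Of 34 heat shock and chaperone genes 8 were higher and 26 lower (median -0.06). The 8 higher ones were the 8 of the ER lumen and membrane, a split made after values were seen, so what follows restates those signs and is a description. Cytosolic chaperones of the Hsp70 and Hsp90 systems were lower in 10 of 10 cases, 9 of them in all 3 pairs (median -0.11). Their RNA leaned lower as well, with a median of -0.03 and 2 of 10 higher. Hspa8, the constitutive Hsp70, had 160, 115 and 118 in control and 149, 108 and 104 at 5 min, and Dnaja2, one of its partners, had 10.5, 8.61 and 8.92 and then 9.67, 7.42 and 7.88. Both were lower in each pair, by less than the distance between replicate 1 and the others. The 8 subunits of the chaperonin CCT, which folds actin and tubulin, were all lower (median -0.07). Of the 8 ER chaperones 6 were higher in all 3 pairs (median 0.09), with RNA at 0.05. Calr, the calcium-binding chaperone calreticulin, had 115, 72.7 and 89.5 in control and 119, 84.5 and 97.0 at 5 min. Canx, its membrane-bound counterpart calnexin, had 99.8, 65.4 and 83.3 and then 106, 75.6 and 88.6.

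Lysosomal enzymes and sphingolipid genes, whose products enter the ER as precursors, were higher in 22 of 24 cases and in all 3 pairs in 19 (79.2%, against 20.7% over all genes). Their median was 0.09, and 0.07, 0.09 and 0.10 in pairs 1 to 3. Smpd1 led the list. Neu1, the lysosomal sialidase, had 5.11, 4.89 and 4.76 in control and 5.63, 5.26 and 5.34 at 5 min. Ppt1, which removes palmitate from proteins, had 13.1, 12.3 and 13.8 and then 14.3, 13.8 and 14.3. Both separated the groups. The median RNA change of the list was 0.01, and the footprint change exceeded the RNA change in 23 of 24 genes.

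**Figure D4:**
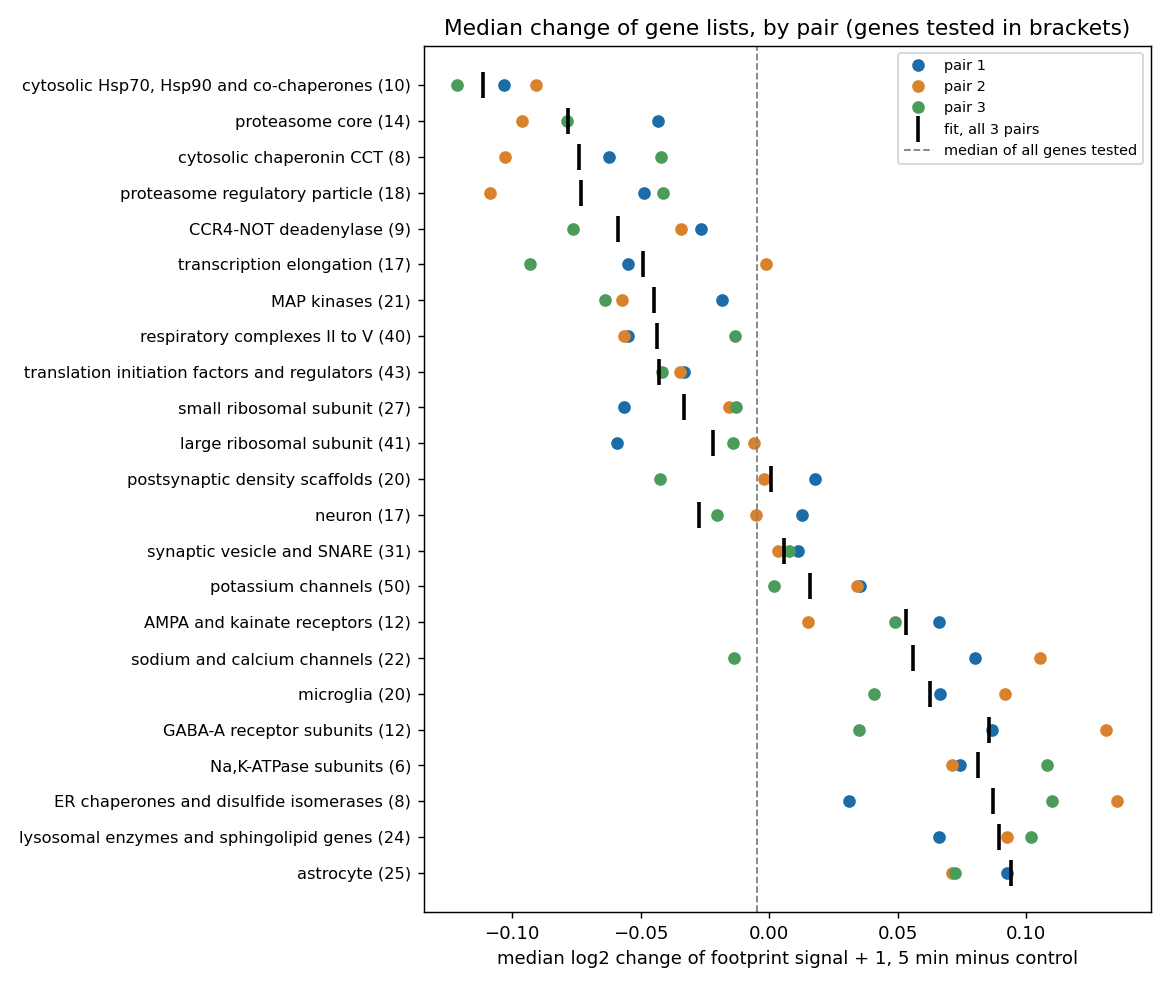
Median log2 change of footprint signal + 1 (x axis) of 23 gene lists (y axis, number of tested genes in brackets), with a point for each pair, a black bar for the fit and a dashed line at the median of all genes tested. Proteasome and cytosolic chaperone lists lie left of the line in each pair, and lysosomal, astrocyte and GABA-A receptor lists right of it.

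Genes of the ribosome were slightly lower in footprints and slightly higher in RNA. Ribosomal protein mRNAs are known for a run of pyrimidines at the cap, the TOP element, through which mTOR signalling controls their translation. Of the 50 tested ribosomal protein genes with a start in the RefSeq table, 11 (22.0%) had a C at the annotated start followed by at least 4 C or T, against 3.09% of 5981 tested genes. The windows of 30 bases around the start are shown for the 4 of these 11 with the smallest p, because footprints of this class are compared here. They are RefSeq sequences of build GRCm38.p6, 5′ to 3′ on the strand of the gene, with 15 bases before the start and the pyrimidine run from the start in capitals. Rpl14 lies at chr9:120571502-120571531 (+), Rps6 at chr4:86857353-86857382 (−), Rpl35a at chr16:33056467-33056496 (+) and Rpl35 at chr2:39005117-39005146 (−).
Rpl14: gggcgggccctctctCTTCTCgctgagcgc
Rps6: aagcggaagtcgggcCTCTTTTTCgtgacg
Rpl35a: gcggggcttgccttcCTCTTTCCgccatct
Rpl35: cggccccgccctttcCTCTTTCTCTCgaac

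Of 41 large-subunit genes 32 were lower in footprints, 14 of them in all 3 pairs, with a median of -0.02 (-0.06, -0.01 and -0.01 in the pairs). Of 27 small-subunit genes 21 were lower, 12 in all 3 pairs (median -0.03). Their RNA leaned the other way: 39 of 41 and 26 of 27 were higher, with medians of 0.04 and 0.06, against 59.5% higher over all genes with both measures. The footprint change was below the RNA change in 36 of 41 and 26 of 27, against 56.1% over all genes, with medians of -0.09 each against -0.01. No ribosomal protein gene passed. Rplp0 of the stalk had 4.53, 4.83 and 4.71 in control and 4.05, 4.03 and 4.22 at 5 min, and Rpl8, a protein of the large subunit, had 12.1, 12.1 and 11.6 and then 10.9, 11 and 11.1. In these 2 the groups did not overlap, nor did they for Gnb2l1, the scaffold protein RACK1 of the small subunit (8.08 ± 0.112 to 7.31 ± 0.282). Rpl14, which carries the run shown above, had 6.77, 6.85 and 8.03 and then 6.08, 6.53 and 7.46, with overlap. Genes with the run were lower in 10 of 11 cases (median -0.05) and those without it in 28 of 39 (median -0.02). The run was sought only at annotated starts, so genes counted as without it may still carry a TOP element. The footprint change minus the RNA change had a median of -0.08 with the run and -0.09 without it, and over all 185 tested genes with such a run 97 were lower. Ribosomal protein genes have many near-identical copies, so how reads were assigned to them is uncertain.

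Other genes of the translation machinery leaned lower. Of 43 initiation factors and regulators 32 were lower (median -0.04). Mknk1, a kinase of the cap-binding protein eIF4E, had 1.26, 1.42 and 1.24 in control and 1.11, 1.07 and 1.1 at 5 min, without overlap. Elongation factors were split, 6 higher and 6 lower. In the mTOR pathway 9 were higher and 10 lower: Mtor itself had 18.1, 12.9 and 12.2 and then 20.3, 13.8 and 14.1, while Rheb, its activator, had 8.41, 8.67 and 9.75 and then 7.58, 8.37 and 8.93. Rraga, a GTPase that brings mTOR to the lysosome, went from 6.32 ± 0.49 to 5.54 ± 0.808. In mitochondria, ribosomal proteins were lower in 53 of 71 cases (median -0.02) and complexes II to V in 32 of 40 (median -0.04). Complex I genes were lower in 23 of 34 cases (median -0.02, and 0.02 in pair 3). Only 4 of 34 (11.8%) were lower in all 3 pairs, against 22.9% over all genes. Sdha, the large subunit of complex II, had 23.1, 18.8 and 18.7 and then 21.6, 16.2 and 16.7. CCR4-NOT deadenylase genes were lower in 8 of 9 cases (median -0.06), a list added after values were seen.

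Receptors and channels of neurons, which are membrane proteins made on the ER, leaned higher in the fit, though not every list did so in each pair. Of 12 subunits of the GABA-A receptor, the chloride channel of fast inhibition, 12 were higher, 8 in all 3 pairs (median 0.09). Gabra5, the alpha-5 subunit that is abundant in hippocampus, had 18.8, 16.9 and 21.1 in control and 20.5, 19.0 and 22.7 at 5 min. Each pair was higher and the groups overlapped. Sodium and calcium channels were higher in 19 of 22 cases (median 0.06), 8 of 22 (36.4%) in all 3 pairs, although their median in pair 3 was -0.01. Cacna2d3, an accessory subunit of calcium channels, had 24.2, 15.5 and 21.4 and then 27.2, 18.5 and 23.0. Of 50 potassium channel genes 31 were higher, 19 in all 3 pairs, with Kcng1, a modulatory subunit, at -0.12. AMPA and kainate receptor genes with their partners were higher in 10 of 12 cases (median 0.05), but only 2 of 12 (16.7%) in all 3 pairs. NMDA receptor genes were higher in 6 of 7 cases (median 0.04, and -0.03 in pair 3), 1 of 7 (14.3%) in all 3 pairs, so both shares lay under the 20.7% of all genes. Grin1, the obligatory NMDA subunit, had 76.8, 50.6 and 61.4 and then 85.3, 57.5 and 67.3.

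Postsynaptic scaffold genes were split 10 to 10 (median 0.00066). Genes of synaptic vesicles and SNAREs were split 16 to 15. Within that list the vesicular glutamate transporter Slc17a7 had 96.8, 94.8 and 94.2 in control and 110, 107 and 100 at 5 min. The vesicle GTPase Rab3a had 40.5, 42.5 and 42.1 and then 37.8, 39.6 and 39.1. Both separated the groups, in opposite directions. Of 16 genes of GABA synthesis, transport and inhibitory scaffolds 11 were higher, all 11 in all 3 pairs (68.8%, median 0.07), and 5 lower. Among them the adhesion protein Nlgn2 went from 11 ± 0.32 to 12.1 ± 0.261 (SD, n = 3). Gad1, an enzyme that makes GABA, went from 19.7 ± 1.98 to 18.0 ± 2.79.

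No signalling gene reached the threshold. Among MAP kinases 16 of 21 were lower (median -0.04), with Mapk6 and Map3k10 the lowest. Genes of the cAMP pathway were split, 11 higher and 13 lower (median -0.01), and the sign of that median changed in 1 alternative. Adcy5, an adenylyl cyclase, had 3.33, 3.30 and 3.02 in control and 3.01, 2.81 and 2.59 at 5 min, without overlap. It had the smallest p of that list, and Adcy2, another cyclase, was its highest member at 0.14. Calmodulin and its kinases were lower in 13 of 21 cases (median -0.03), and genes of transcription elongation in 14 of 17 (median -0.05, with pair 2 at -0.00135). The family of 12 whose protein names begin with transcription elongation was split, 6 higher and 6 lower (median -0.000822). Histone deacetylases and sirtuins were lower in 8 of 10 cases (median -0.05).

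Activity-regulated genes, whose transcription starts within minutes of neuronal firing, gave the clearest differences in RNA. There 3 of 8061 genes passed (0.0372%, and 532 genes or 6.6% at an unadjusted p under 0.05), all 3 higher at 5 min. Arc, whose protein controls AMPA receptors at synapses, had 3.70, 3.19 and 3.86 in control RNA and 4.34, 5.16 and 4.73 at 5 min (log2 change 0.33, SE 0.057, limma adjusted p = 0.0235). Junb, an AP-1 transcription factor, had 1.70, 1.89 and 1.67 and then 2.09, 2.92 and 2.20 (0.30, SE 0.051, limma adjusted p = 0.0235). Without the block, or without any 1 replicate number, 0 genes passed in RNA.

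In footprints Arc had 5.24, 4.44 and 3.85 in control and 4.79, 5.66 and 3.97 at 5 min. It was higher in pairs 2 and 3 and lower in pair 1, with a log2 change of 0.07 (SE 0.074) that came to -0.04 without replicate 2. Junb had 2.29, 2.94 and 2.40 and then 2.50, 3.37 and 2.58, higher in each pair (0.10, SE 0.059). The footprint change minus the RNA change was -0.25 for Arc and -0.19 for Junb, neither past the threshold. Egr1, a zinc finger transcription factor, went from 6.91 ± 0.651 to 7.41 ± 0.235 in footprints (0.09), and Nr4a1, an orphan nuclear receptor, from 1.78 ± 0.154 to 1.70 ± 0.504 (-0.06). Bdnf, the neurotrophin gene, was at 0.03, and Homer1, a scaffold gene, at -0.01.

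Fos, Fosb, Npas4, Btg2 and Dusp1 lay under the limit of 1 in footprints and are given without it. Fos had a footprint signal of 0.434, 0.404 and 0.354 in control and of 0.370, 0.496 and 0.387 at 5 min, while its RNA signal was 0.356, 0.324 and 0.352 and then 0.436, 0.591 and 0.649. Npas4, the inducible factor of inhibitory synapses, had footprints of 0.176 ± 0.0512 and 0.229 ± 0.0659 and RNA of 0.132 ± 0.0442 and 0.395 ± 0.207 (SD, n = 3). In RNA both genes separated the groups and in footprints neither did. Fosb, of the same family as Fos, went from 0.175 ± 0.0269 to 0.173 ± 0.0325 in footprints and from 0.13 ± 0.0333 to 0.162 ± 0.0534 in RNA. Btg2, an antiproliferative gene, went from 0.396 ± 0.0408 to 0.427 ± 0.0666 in footprints and from 1.43 ± 0.059 to 1.76 ± 0.445 in RNA, and Dusp1, a phosphatase of MAP kinases, from 0.679 ± 0.087 to 0.641 ± 0.13 and from 0.714 ± 0.0191 to 0.839 ± 0.206. In RNA each of these 3 was lower in 1 pair, and the groups overlapped in both readouts. The RNA of Nr4a1, which lay under the limit in RNA, went from 0.858 ± 0.0715 to 0.854 ± 0.0809 and was lower in 2 of 3 pairs. Over the 19 tested immediate-early genes, 9 were higher and 10 lower in footprints (median -0.00776), and of the 14 with RNA values past the filter 12 were higher in RNA.

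**Figure D5:**
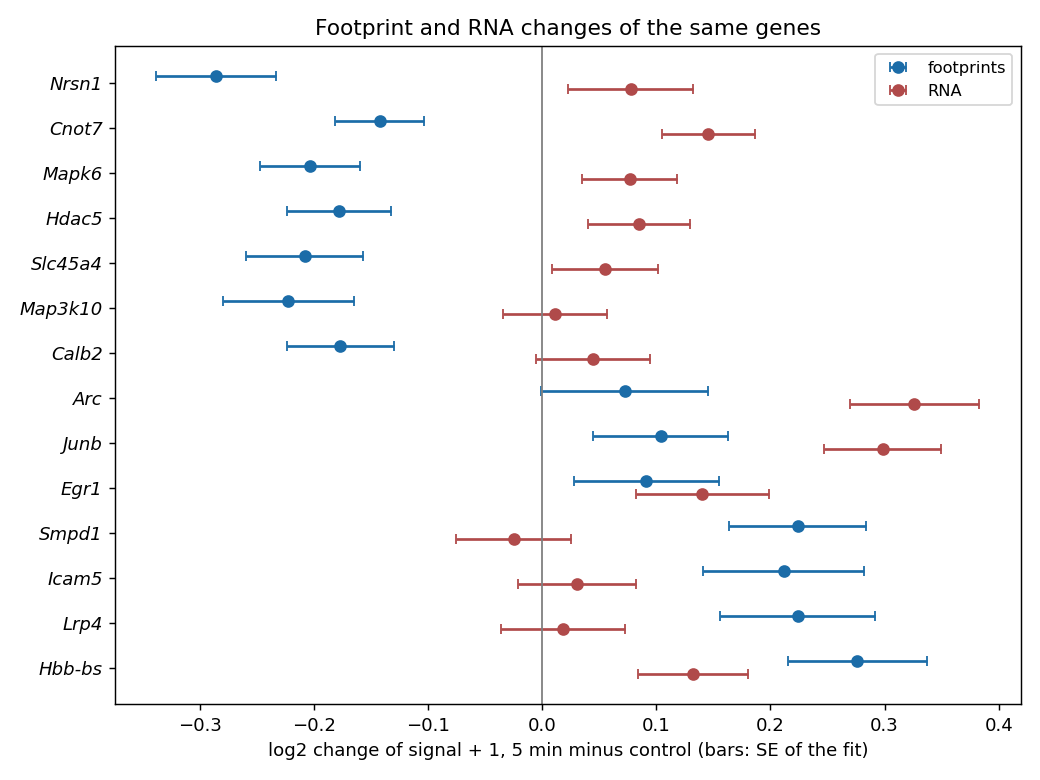
Log2 change of footprint signal + 1 and of RNA signal + 1 from control to 5 min (x axis, bars for the SE of the fit) for 14 genes (y axis). Nrsn1 and Cnot7 lie left of 0 in footprints and right of it in RNA, whereas Arc and Junb lie further right in RNA than in footprints.

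The direct comparison of both readouts called 1 of 7103 genes (0.0141%, and 397 genes or 5.59% at an unadjusted p under 0.05). Cnot7, a catalytic subunit of the CCR4-NOT complex that shortens poly(A) tails, had footprints of 2.61, 2.97 and 2.89 in control and 2.30, 2.66 and 2.42 at 5 min (log2 change -0.14, SE 0.039). Its RNA was 9.28, 9.06 and 10.0 in control and 10.3, 10.1 and 11.4 at 5 min (0.15, SE 0.041). Footprints were lower and RNA higher in each pair, and the RNA groups did not overlap. The difference of the changes was -0.29 (SE 0.052, limma adjusted p = 0.0486). It was lost without the block and without any 1 replicate number.

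Marker genes of other cell types moved with some of these groups, and their part in the results was not tested. Of 25 astrocyte markers 18 were higher, all 18 in all 3 pairs, and 7 lower, 3 of them in all 3 pairs (median 0.09, RNA 0.04). Their summed signal was 1931, 1430 and 1675 in control and 2053, 1563 and 1801 at 5 min. Of 20 microglial markers 18 were higher, 14 in all 3 pairs (median 0.06), and the summed signal was 197, 146 and 180 and then 209, 158 and 192. Csf1r, the receptor on which microglia depend, had 16.2, 10.2 and 12.6 and then 18.0, 11.3 and 14. CA1 pyramidal markers were higher in 10 of 11 cases (median 0.06) and CA3 pyramidal markers in 6 of 8 (median 0.03). By contrast, 17 general neuronal markers were split 8 to 9 (median -0.03) and 10 dentate granule markers 4 to 6. Astrocyte Gja1, the gap junction protein connexin 43, had 35.0, 22.6 and 31.3 and then 37.9, 28.1 and 33.7. Among 24 oligodendrocyte markers, 17 of them higher (median 0.03), Cldn11 and Mag were at 0.17 each. Olig2 had 2.03, 2.48 and 2.37 in control and 1.94, 2.13 and 2.15 at 5 min (-0.10). The dentate and interneuron calcium buffers Calb1 and Calb2 were at -0.12 and -0.18. Calb2 was the lowest of 14 interneuron markers and neuropeptides, of which 11 were higher, 6 in all 3 pairs, and 3 lower (median 0.07). For the astrocyte and microglial sums, and for Calr and Csf1r, control libraries differed among themselves by more than any pair differed between control and 5 min.

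Several lists tied to neuronal activity and stress were small or split. Of 14 late-response genes 10 were higher (median 0.07), among them Pcsk1, a protease that matures neuropeptides (7.99, 4.67 and 6.62, then 8.51, 6.29 and 6.7), and Vgf, a secreted neuropeptide precursor (52.0, 40.3 and 44.7, then 58.1, 44.4 and 47.3). In the same list the G protein regulator Rgs4 had 8.32, 9.15 and 10.3 and then 7.51, 8.51 and 8.83. Of 14 glucocorticoid-responsive genes 10 were higher (median 0.04), 3 of them in all 3 pairs (21.4%, near the 20.7% of all genes). Of 6 stress genes with upstream reading frames, whose translation is known to go up when initiation is impaired, 3 were higher and 3 lower. Cebpb and Atf4, transcription factors of that list, were higher in each pair with overlapping groups (Cebpb at 0.879, 1.29 and 1.09 and then 1.01, 1.47 and 1.26, Atf4 from 2.42 ± 0.179 to 2.66 ± 0.34). Genes of cholesterol synthesis and its control were higher in 12 of 17 cases (median 0.05). The regulator Insig1 was the highest, and Sqle, a rate-setting oxygenase, was at 0.10.

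The later groups of the series are set against the same 3 control libraries, so their values are given side by side and no likeness is drawn from them. Precursors outside mitochondria had medians of 0.07, 0.03, 0.04 and 0.07 at 5, 10 and 30 min and 4 h. Lysosomal and sphingolipid genes had 0.09, 0.05, 0.05 and 0.06, and ER chaperones 0.09, 0.04, 0.06 and 0.11. The proteasome core had -0.08, -0.03, -0.00363 and -0.05, and the regulatory particle -0.07, -0.04, -0.00162 and -0.05. Large-subunit ribosomal genes had -0.02, 0.05, 0.05 and -0.06. The mean footprint signal of Nrsn1 was 2.49, 2.64, 3.22 and 3.40, and that of Hdac5 was 3.78, 3.93, 4.38 and 4.14. Arc stood at 4.81, 6.56, 7.94 and 4.09 and Junb at 2.82, 3.54, 3.77 and 2.23, against control means of 4.51 and 2.54.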

How the data were processed

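Footprints and RNA of hippocampal tissue were measured in 15 libraries each. Per the submitters' processing notes, CASAVA 1.8.2 and Bowtie 1.1.1 were used with mouse build mm9, and no source used here says how reads were assigned to genes. The authors deposited 1 signal value per gene and library, whose unit the file headers do not name. Every deposited signal lay within 0.001 reads of a whole number of reads after multiplication by 1 number per library, so depths are those recovered reads on listed genes. That number was whole in all libraries but 1 RNA library of the 5 min group (replicate 2), where it came out as 328.5, so the reads behind that library are uncertain. The values were analysed as log2(signal + 1) where the mean reached 1, with limma 3.58.1 (lmFit, eBayes with a trend) in R 4.3.3, on all 15 libraries of a kind with time and replicate number as terms, 2-sided, Benjamini-Hochberg over all genes, threshold 0.05. The footprint change was set against the RNA change as an interaction in 1 model over both kinds of library. Replicate numbers pair the samples: deviations from group means correlated at 0.912, 0.817 and 0.797 between footprint libraries of the same number. The fits were tested on simulated data, with a spread that was set rather than estimated. With 15 footprint libraries, 22 of 50 genes changed 1.25-fold and 47 of 48 changed 1.5-fold were called, with 6 false calls. Changes of 1.25-fold could thus be missed.

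The members and gene lists were chosen with earlier results of these data known. Named genes were Nrsn1, Nrsn2 and 11 activity-regulated genes, the 12 per direction with the smallest p among those that moved the same way in all 3 pairs, the 5 further ones per direction with the largest change and no overlap, and up to 4 members per list with the smallest p. Lists are described by counts and medians, with no test. Protein name classes and families, the chaperone, CCR4-NOT and Na,K-ATPase lists, genes named within families, and Hspa8 were chosen after values were seen. Values of some genes, among them 1 of the 3 called in RNA, are not reported here. Culture and embryonic stem cell samples were not used here. Alternatives are in the closing section.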

Additional observations from a re-analysis of the deposited data

Results flagged for a closer look

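Cnot7 was the 1 gene whose footprint change and RNA change at 5 min differed past the threshold by limma with Benjamini-Hochberg adjustment over 7103 genes (-0.29 on the log2 scale, SE 0.052, adjusted p = 0.0486). Footprints were lower in 3 of 3 pairs and RNA was higher in 3 of 3 pairs. The cause was not tested. Groups of 3 libraries are too small for a check of single outlying samples.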

How the results depend on the processing

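The count of genes with changed footprints was 0 in the reported fit and 0 without the replicate block (51 at an unadjusted p under 0.05), with pseudocounts of 0.1 and 0.5, without the filter, with a mean of at least 5, with each library centred on its median gene, with robust eBayes and with voom on recovered reads, which was chosen after seeing the data. It was 228 with the 6 libraries of the comparison alone. Without 1 library or 1 replicate number it ranged from 0 to 2, the 2 being Nrsn1 and Hbb-bs without replicate 2. With the 6 libraries alone and 1 pair left out, also chosen after seeing the data, it ranged from 0 to 720. The count in RNA was 3, and 2 with each library centred on its median gene and 2 with voom on recovered reads. It was 0 without the replicate block, 0 with a mean of at least 5 (Arc and Junb lie under it) and 0 to 0 without 1 replicate number. The count in footprints against RNA was 1, and 0 without the replicate block and 0 to 0 without 1 replicate number. The cause of these moves was not tested. Among named genes no sign changed outside the fits without 1 library or replicate number, where 8 values did. Arc ranged from -0.0378 to 0.163 there (with -0.0129), Nr4a1 from -0.182 to 0.0159, Bdnf from -0.00854 to 0.0862 (with -0.00229 and -0.00273) and Homer1 from -0.048 to 0.0372 (with 0.0207). Of the list medians 658 stayed within the spread of the 3 pairs and 110 moved by more. These are not counts of separate checks, because for list medians leaving out 1 library removed its whole pair. Leaving out a control library, its 5 min partner or their replicate number thus gave the same value, counted each time. The sign of the median changed in at least 1 alternative for the lists of immediate-early, mTOR, postsynaptic scaffold, active zone, translation elongation, cAMP, neurite, upstream reading frame, CA3, dentate, endothelial, choroid plexus, blood, cortex, striatum, thalamus and RNA quality genes, and for no other list. The 2 planned tests on counts were not run: reads were recovered from the signal rather than deposited as counts, no library holds a gene with 1 read to fix the size of a read, and the number for 1 RNA library was not whole (328.5). The comparison with protein length was not run for want of a protein table. The median SE over genes was 0.0492 on the log2 scale in the reported fit and 0.0388 with 6 libraries.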
